A study of Mus musculus with 7 samples.

Results

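The adult was compared with postnatal day 3 (P3) in HopX-positive cells sorted from mouse brain. The comparison rests on 5 of the 7 RNA-seq libraries of the series, which were 3 adult libraries (replicates 1, 2 and 3) and 2 P3 libraries (replicates 1 and 3). The remaining 2 libraries, from embryonic day 15 (E15), entered the filter on low values and the estimate of the spread, but not the differences. All mice were C57BL/6. The sources used here name no transgene, allele or treatment, and no age in weeks is given for the adult. Cells of both stages were sorted by fluorescence-activated cell sorting, and the labels call them neural progenitor cells. The sources used here do not give how HopX was detected or which brain region was dissected at each stage, so a difference in region and a difference in stage cannot be told apart. Nothing says that replicates came from separate animals. The p-values thus describe the spread between samples only, and this spread may be technical.

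Hopx encodes a small homeodomain protein that does not bind DNA. In the mouse brain it is known from radial glia, from quiescent neural stem cells of the adult niches and from astrocytes. Around birth, radial glia leave neurogenesis and give rise to astrocytes, ependymal cells and the stem cells that persist into adult life. Astrocytes divide locally in the first postnatal weeks and then mature, when they acquire gap junctions, transmitter transporters and fine processes that contact synapses and vessels.

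Each value was a TPM, a transcript's share of its library scaled to a fixed total and corrected for length. Library totals lay between 998450 and 999193. Since TPM holds no read number, depth is unknown and counting error could not be estimated. Of 24978 genes in the table, 15931 reached 1 TPM in at least 2 of the 7 libraries and were tested. Differences are adult minus P3 on the log2(TPM + 1) scale, and this scale understates the change of genes with low values. A number in parentheses after a gene is its log2 difference. A gene was called at a Benjamini-Hochberg adjusted p under 0.05 in limma. The share of genes at 0 was 31.4%, 28.4% and 26.5% in the adult libraries and 21.2% and 19.6% at P3. A gene with no value above 0 in any library of a stage is described as listed at 0, without a fold.

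Across all genes tested, 1337 were higher in the adult, which is 8.39%, and 2193 were lower, which is 13.8%. Changes of at least 2-fold were called for 1120 higher and 1671 lower genes, and changes of at least 8-fold for 115 and 114. The median difference over all genes tested was -0.13, against which list medians are to be read. Counts of list members that rose or fell are to be read against 8.39% and 13.8% in the same way. The split of calls depended on the scaling. The 10 most abundant genes held 15.04%, 15.2% and 16.5% of the TPM in the adult libraries and 10.3% and 8.02% at P3. With median-of-ratios scaling the median of all genes was -0.01, and 1699 genes were higher and 1744 lower. Quantile normalization gave 1714 and 1849, and leaving the 10 most abundant genes out of the total gave 1665 and 1759. Of the calls made without rescaling, 1336 of the 1337 higher and 1743 of the 2193 lower were also called with median-of-ratios scaling. Fewer genes were called with P3 replicate 3 left out (436 higher and 671 lower) or with P3 replicate 1 left out (881 and 1383), fits in which 1 library stands for the stage. A library that alone stands for its stage is assumed to be as variable as the other samples. The calls of 406 higher and 585 lower genes held in each of the 7 fits that left out 1 library. Genes described below as higher or lower are among them unless a lost call is stated, in which the libraries left out are written as adult 1 or P3 3, and adult 2 alone means that adult replicates 1 and 3 were left out together. Counts in parentheses after a list are those of fits without 1 library, with the library written likewise. Every adult library was above both P3 libraries for 19.9% of the genes tested and below both for 29.2%.

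**Figure D1:**
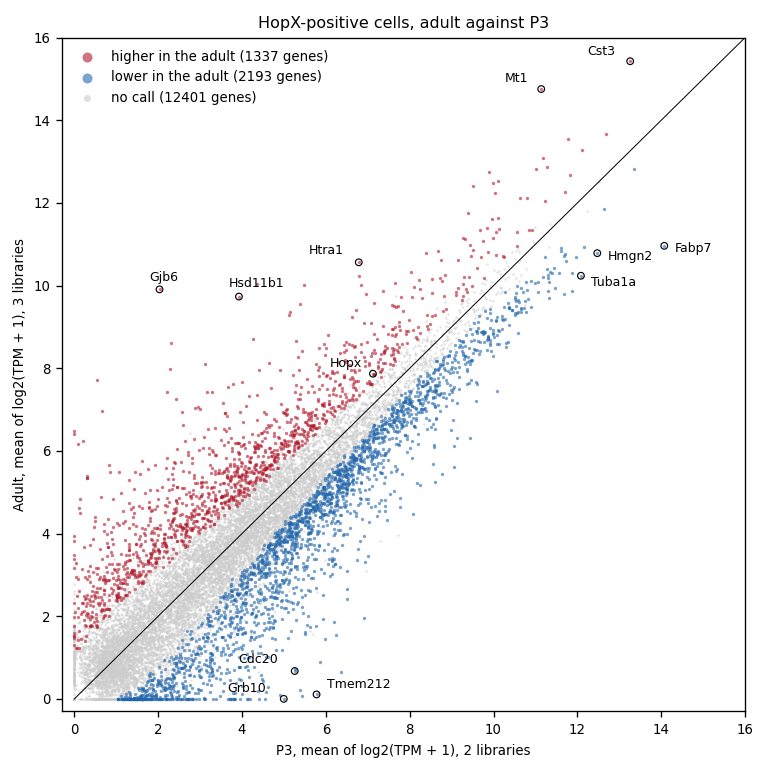
Mean log2(TPM + 1) of the 3 adult libraries (vertical axis) against that of the 2 P3 libraries (horizontal axis), 1 point per tested gene, with the line of equal levels. The 1337 genes called higher in the adult (red) lie above the line and the 2193 called lower (blue) below it, with Gjb6 and Hsd11b1 far above and Fabp7, Cdc20 and Tmem212 far below.

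The largest increase was that of Gjb6, which encodes a connexin, a gap junction protein of mature astrocytes. Gjb6 was at 1063, 985 and 846 TPM in the adult libraries, against 4.09 and 2.28 TPM at P3 (log2 7.88, SE 0.25, limma, Benjamini-Hochberg adjusted p = 1.20e-05). Etnppl, which encodes a phospholyase that breaks down phosphoethanolamine, was at 234, 229 and 167 TPM in the adult, compared with 0.89 and 0.104 TPM at P3 (log2 7.18, SE 0.33, limma, Benjamini-Hochberg adjusted p = 3.57e-05). Hsd11b1, the reductase that regenerates active glucocorticoid inside cells, was at 899, 853 and 802 TPM in the adult and 17.2 and 11.7 TPM at P3 (log2 5.81, SE 0.26, limma, Benjamini-Hochberg adjusted p = 3.57e-05). The largest increases were taken from genes without overlap between the stages. For these 3 genes the adult libraries lay far above P3 and close together. Ptgds, which encodes the synthase of prostaglandin D2, was at 2546, 479 and 939.8 TPM in the adult libraries, against 19 and 20.0 TPM at P3 (log2 5.68, SE 0.57, limma, Benjamini-Hochberg adjusted p = 0.000624), with adult replicate 1 well above the other adult libraries. The others were the sulfotransferase gene Sult1a1 (5.70), the P-type ATPase gene Atp13a4 (5.23), the glycogen phosphorylase gene Pygm (5.04), Fam107a (4.98), the elastic fibre gene Fbln5 (4.82) and the potassium channel gene Kcnk1 (4.82). Pygm has 2 table rows with identical values, so its level is uncertain. CR974586.6 was listed at 0 in both P3 libraries and was at 108, 100.1 and 63.6 TPM in the adult libraries.

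The largest decrease was that of Tm4sf1, which encodes a membrane protein of the transmembrane 4 family. Tm4sf1 was at 0.601, 0.81 and 0.315 TPM in the adult, compared with 84.7 and 77.8 TPM at P3 (log2 -5.72, SE 0.33, limma, Benjamini-Hochberg adjusted p = 9.21e-05). Tmem212, known from multiciliated cells, was at 0, 0 and 0.25 TPM in the adult and 46.7 and 62 TPM at P3 (log2 -5.67, SE 0.35, limma, Benjamini-Hochberg adjusted p = 0.000115). Cdc20, the activator that starts the exit from mitosis, was at 0.806, 0.402 and 0.604 TPM in the adult libraries, against 28.4 and 48.7 TPM at P3 (log2 -4.58, SE 0.35, limma, Benjamini-Hochberg adjusted p = 0.000232). In each of these the adult values stayed under 1 TPM. The largest decreases were taken from genes without overlap between the stages. Grb10, an imprinted gene for an adaptor that restrains growth factor receptors, was listed at 0 in all 3 adult libraries and was at 18.7 and 50.5 TPM at P3. Dmkn and Got1l1 were likewise listed at 0 in the adult, against 33.4 and 15 TPM and 23.7 and 17 TPM at P3. Calls of this size were also made for Pifo (-5.17), Fam216b (-4.82), Plac9b (-4.55), Calml4 (-4.40), the urea transporter gene Slc14a2 (-4.54, call lost without P3 3) and the histone gene Hist1h2br (-5.36), which has near-identical copies that can share reads.

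**Figure D2:**
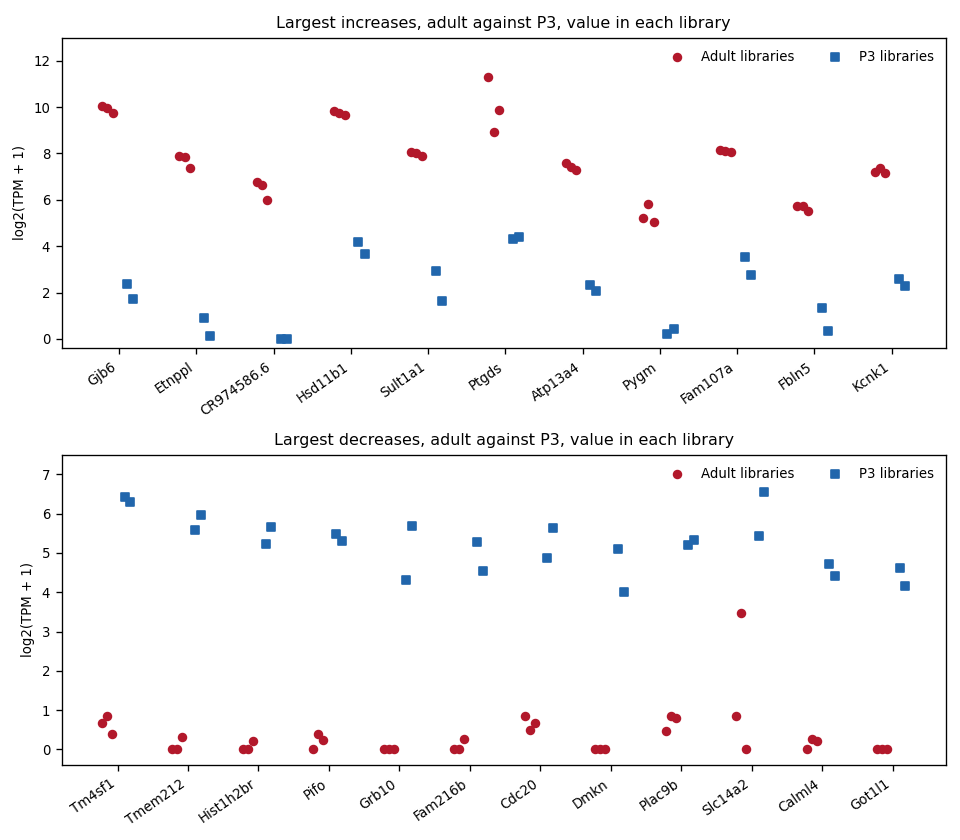
log2(TPM + 1) in each library for the genes with the largest increases (top) and decreases (bottom), with adult libraries as red circles left of P3 libraries as blue squares. Genes were eligible only if no adult value overlapped a P3 value, so the lack of overlap comes from the choice. Slc14a2 has 1 adult library, at 10.1 TPM, above the other 2.

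Among the most abundant transcripts of the adult, Cst3 stood first. It encodes the secreted protease inhibitor cystatin C and was at 44931, 44589 and 42769 TPM in the adult, compared with 13200.0 and 7278 TPM at P3 (log2 2.17, SE 0.21, limma, Benjamini-Hochberg adjusted p = 0.000518). Mt1, a metallothionein that binds zinc and copper, was at 25391, 26245 and 31732 TPM in the adult and 3187 and 1591 TPM at P3 (log2 3.62, SE 0.26, limma, Benjamini-Hochberg adjusted p = 0.000188). Dbi, which encodes an acyl-CoA binding protein of glia, was at 15929, 17742 and 19241 TPM in the adult libraries, against 22393 and 14374 TPM at P3 (log2 -0.03, SE 0.17, limma, Benjamini-Hochberg adjusted p = 0.931). Its values overlapped between the stages. Aldoc, the brain form of aldolase, was at 9079, 8949.8 and 7925 TPM in the adult, compared with 2733 and 1968 TPM at P3 (log2 1.90). Apoe, the main lipid carrier of the brain, was at 7041, 7946 and 6627 TPM in the adult and 2931 and 1464 TPM at P3 (log2 1.79, call lost with adult 2 alone). The fatty acid binding protein gene Fabp7, a marker of radial glia and young astrocytes, was at 1829, 2309.8 and 1874 TPM in the adult libraries, against 21682 and 13691 TPM at P3 (log2 -3.11, SE 0.20, limma, Benjamini-Hochberg adjusted p = 0.000115). Its P3 values were above those of every adult library by a wide margin. The cyclophilin gene Ppia was at 6704, 7206 and 7703 TPM in the adult, compared with 10692 and 10117 TPM at P3 (log2 -0.53, call lost in 4 other alternative fits). The mitochondrial genes mt-Atp6 and mt-Co2 were also among the 10 most abundant.

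Hopx itself was at 219.8, 249 and 229.5 TPM in the adult and 171 and 112 TPM at P3, without overlap (log2 0.74, SE 0.20, limma, Benjamini-Hochberg adjusted p = 0.0282, call lost without adult 2, adult 3, E15 1, E15 2 or P3 3 and in 5 other alternative fits). HopX was also what the cells were sorted on, and how the sort bears on this level was not tested.

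Markers of astrocytes were mostly higher in the adult. Among the 29 markers on the list 20 rose and none fell, where 8.39% of all genes rose, and the median was 1.83. Their summed level was 37643, 37355 and 34364 TPM in the adult libraries, against 12838 and 7664 TPM at P3. Beside Gjb6 and Fam107a, the neurotensin receptor gene Ntsr2 (4.22), the inter-alpha-trypsin inhibitor gene Itih3 (4.14), the claudin gene Cldn10 (3.18) and the calcium-binding protein gene S100b (2.98) had the largest differences. Clu, which encodes the chaperone-like lipoprotein clusterin, was at 5626, 5285 and 5277 TPM in the adult, compared with 973 and 539 TPM at P3 (log2 2.90, SE 0.25, limma, Benjamini-Hochberg adjusted p = 0.000353). The members that did not pass included 3 markers widely used to define astrocytes. Gfap, the intermediate filament protein, was at 110.2, 105 and 105 TPM in the adult and 361 and 161 TPM at P3 (log2 -1.17, SE 0.56, limma, Benjamini-Hochberg adjusted p = 0.172). Aqp4, the water channel, was at 189.5, 182 and 189.6 TPM in the adult libraries, against 274 and 156 TPM at P3 (log2 -0.14, SE 0.29, limma, Benjamini-Hochberg adjusted p = 0.769). Aldh1l1, a folate enzyme, was at 97.8, 78.7 and 62.9 TPM in the adult, compared with 80.9 and 65.4 TPM at P3 (log2 0.11, SE 0.34, limma, Benjamini-Hochberg adjusted p = 0.858). The values of Aqp4 and Aldh1l1 overlapped between the stages, while both P3 values of Gfap lay above every adult value. In these bulk samples fewer cells of a type and less RNA per cell cannot be told apart. P3 replicate 3 was lower than replicate 1 in this list, with a median difference of -0.81.

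Genes known from quiescent stem cells rose more often than they fell, with 12 higher and 3 lower of 26 and a median of 0.80. Htra1, a secreted serine protease, was at 1461, 1576 and 1499.8 TPM in the adult and 123 and 97 TPM at P3 (log2 3.78, SE 0.16, limma, Benjamini-Hochberg adjusted p = 3.57e-05). The peroxiredoxin gene Prdx6 (1.49), the metallothionein gene Mt3 (2.20) and the tetraspanin gene Tspan7 (1.35) also rose. Those that fell were Id3 (-1.73), Hes5 (-1.37) and Ccdc80 (-1.5, call lost without P3 1 and with adult 2 alone). Hes5, a target of Notch signaling, was at 38.3, 34.2 and 29.8 TPM in the adult libraries, against 79.2 and 100.1 TPM at P3. Sox2, a transcription factor that defines neural stem cells and persists in astrocytes, was at 67.1, 58.7 and 82.9 TPM in the adult, compared with 51.9 and 41.6 TPM at P3 (log2 0.56, SE 0.22, limma, Benjamini-Hochberg adjusted p = 0.103). Members of this list that astrocytes also express are not separate evidence of stem cells.

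Radial glial genes were called higher near the rate of all genes and lower more often. Of 27 tested, 3 were higher and 6 lower (fewer lower without P3 3). These shares were 11.1% higher and 22.2% lower, against 8.39% and 13.8% of all genes tested. Every adult library lay below both P3 libraries for 14 of the 27 and above both for 4, against 29.2% and 19.9% of all genes tested. The summed level, which includes Fabp7, was 25528, 27708 and 28243 TPM in the adult and 49205 and 32065 TPM at P3. The list median was -0.21, -0.36 to -0.13 in the fits that left out 1 library and between -0.42 and -0.06 in the alternatives other than leaving out 1 library. Vim, an intermediate filament gene of radial glia, was at 191, 162 and 163 TPM in the adult and 471 and 562 TPM at P3 (log2 -1.58, SE 0.15, limma, Benjamini-Hochberg adjusted p = 0.000496). Nes, the filament gene that names neural progenitors, was at 1.69, 0.321 and 1.13 TPM in the adult libraries, against 4.63 and 14.6 TPM at P3 (log2 -2.25, SE 0.50, limma, Benjamini-Hochberg adjusted p = 0.0153, call lost without P3 3, with no filter on low values and with adult 2 alone). Although the labels call the cells neural progenitors, Nes was close to 0 in the adult, while Sox2 was present in every library. Pax6, a transcription factor of cortical radial glia, was at 76, 68.9 and 80.2 TPM in the adult, compared with 97 and 132 TPM at P3 (log2 -0.59, SE 0.18, limma, Benjamini-Hochberg adjusted p = 0.0512), with both P3 values above the adult ones. Ttyh1, a membrane protein gene (1.96), and the glutamate transporter gene Slc1a3 (1.32, call lost with adult 2 alone) rose. Of 13 genes linked to outer radial glia, 5 rose and 3 fell (2 higher without P3 3 and 3 higher without adult 2, adult 3, E15 1 or E15 2). The matrix gene Tnc was at 22.8, 30.6 and 20.7 TPM in the adult and 187 and 109 TPM at P3 (log2 -2.50, SE 0.28, limma, Benjamini-Hochberg adjusted p = 0.000966). The signaling adaptor gene Pea15a was at 125, 133 and 114 TPM in the adult libraries, against 482 and 371 TPM at P3 (log2 -1.77, SE 0.18, limma, Benjamini-Hochberg adjusted p = 0.000696). Both were lower without overlap. Lgals3bp, which encodes a secreted galectin ligand, moved the other way and was at 86.2, 134 and 82.2 TPM in the adult, compared with 7.48 and 3.23 TPM at P3 (log2 4.05, SE 0.42, limma, Benjamini-Hochberg adjusted p = 0.000696).

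Genes of neurogenesis were lower in the adult. Of 15 genes of intermediate progenitors, the cells that divide to give neurons, 10 fell, where 13.8% of all genes fell, and none rose, with a median of -2.02 (5 lower without P3 3, where the median was -1.33). Eomes, the T-box factor that defines them, was at 6.37, 5.62 and 2.73 TPM in the adult and 27.7 and 71.6 TPM at P3 (log2 -3.01, SE 0.44, limma, Benjamini-Hochberg adjusted p = 0.00261). Neurog2, a proneural factor, was at 3.78, 4.67 and 7.01 TPM in the adult libraries, against 21 and 33.7 TPM at P3 (log2 -2.20, SE 0.32, limma, Benjamini-Hochberg adjusted p = 0.00261). Insm1 (-2.43) and Btg2 (-2.02) fell too, and no adult value of these 4 genes reached a P3 value. Of 23 immature neuron genes, 10 fell and 1 rose, Fezf2 (1.07, call lost without P3 3 and with adult 2 alone), with a median of -1.70 (5 lower without P3 3, where the median was -0.98). The growth cone protein gene Dpysl3 (-3.38), Nrep (-2.94), the tubulin-binding gene Stmn1 (-1.90) and the transcription factor gene Sox4 (-1.70) fell. Tubb3, the neuronal beta tubulin, was at 33.5, 3.89 and 20.6 TPM in the adult, compared with 22.8 and 209 TPM at P3 (log2 -2.20, SE 0.98, limma, Benjamini-Hochberg adjusted p = 0.149). Neurod6, a factor of young excitatory neurons, was at 0.655, 10.6 and 0.371 TPM in the adult and 9.88 and 242 TPM at P3 (log2 -4.11, SE 1.28, limma, Benjamini-Hochberg adjusted p = 0.0523). Their P3 libraries differed from each other more than from some adult libraries. The median difference of P3 replicate 3 from P3 replicate 1 was 0.93 over immature neuron genes and 0.66 over intermediate progenitor genes. The summed level of immature neuron genes was 1411, 1433 and 1385 TPM in the adult libraries, against 3558 and 7097 TPM at P3, and that of intermediate progenitor genes was 349, 263 and 201 TPM in the adult, compared with 681 and 1116 TPM at P3.

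Markers of other cell types differed between the stages too, and their part in the results was not tested. Of 18 mature neuron genes 9 rose and 1 fell (3 to 5 higher without E15 1, E15 2, P3 1 or P3 3, and 3 lower without P3 1). Their summed level was 1369, 1070.5 and 1313 TPM in the adult and 1356 and 1741 TPM at P3, which overlapped. The NMDA receptor gene Grin2b (3.62), the calcium sensor gene Vsnl1 (2.77) and the long noncoding RNA gene Snhg11 (1.87) were among them. Snap25, a synaptic vesicle fusion gene, was at 140.4, 34.5 and 127 TPM in the adult libraries, against 15.3 and 28.8 TPM at P3, with adult replicate 2 close to P3. Of 17 markers of microglia 9 passed as higher and none as lower (3 higher without P3 3), with a summed level of 640.3, 544 and 676 TPM in the adult, compared with 156 and 95.1 TPM at P3. Ctss (3.61) and Trem2 (3.0), genes of a lysosomal protease and a surface receptor, rose. The defining receptor gene Cx3cr1 was at 9.61, 0.886 and 11.6 TPM in the adult and 1.93 and 2.77 TPM at P3, and Tmem119 was at 3.12, 0.737 and 0 TPM in the adult libraries, against 0 and 0 TPM at P3, so that both were near 0 in some adult libraries. Even so, all 17 microglia markers had a positive difference. For 13 of them every adult library lay above both P3 libraries, which held for 19.9% of all genes tested.

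Myelin genes separated the adult libraries. Of 22 mature oligodendrocyte genes 4 rose (2 higher without P3 3 and 13 higher without adult 2). The summed level was 2069.6, 1349.6 and 1941 TPM in the adult, compared with 601 and 345 TPM at P3. Mog, a myelin surface glycoprotein gene, was at 26.4, 0 and 31.5 TPM in the adult and 0.0607 and 0 TPM at P3 (log2 3.22, SE 1.31, limma, Benjamini-Hochberg adjusted p = 0.119). Mog was thus high in adult replicates 1 and 3 and as low in adult replicate 2 as at P3. The list median was -0.12 with adult replicates 1 and 3 left out together, against 1.79 with all libraries and 1.07 to 2.04 in the fits that left out 1. Members with smaller spread were the receptor gene Gpr37 (2.44) and the chaperone gene Cryab (1.95), which astrocytes can also express. Of 13 oligodendrocyte progenitor genes, 6 were tested and 2 fell (0 lower without P3 3 and 1 lower without P3 1), with a summed level of 35.4, 30.5 and 30.2 TPM in the adult libraries, against 116 and 89.8 TPM at P3. The defining receptor gene Pdgfra was at 0, 0.0653 and 0.531 TPM in the adult, compared with 0.0148 and 0.289 TPM at P3. Of 14 endothelial markers 9 were tested, 2 rose and 1 fell, and the summed level was 409, 371 and 438 TPM in the adult and 275 and 193 TPM at P3. Slc2a1, a glucose transporter gene shared with glia (1.94), and Ramp2 (1.72, call lost with adult 2 alone) rose, and Itm2a (-2.10) fell. Cldn5, the junction gene that defines brain endothelium, was at 0, 0.36 and 0.10 TPM in the adult libraries, against 0 and 0 TPM at P3.

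Mural and ependymal genes were lower in the adult. Of 10 mural cell and fibroblast markers 6 fell and none rose, with a median of -1.67 and a summed level of 65.8, 83 and 83.9 TPM in the adult, compared with 219 and 153 TPM at P3. Rgs5, which defines pericytes, was at 5.58, 12.5 and 11.5 TPM in the adult and 86.1 and 51.6 TPM at P3 (log2 -2.71, SE 0.41, limma, Benjamini-Hochberg adjusted p = 0.00297). Higd1b and Vtn were listed at 0 in the adult, against 6.58 and 8.46 TPM and 4.33 and 6.96 TPM at P3. Of 18 ependymal and motile cilium genes 12 fell and 1 rose, Rarres2 (1.65, call lost without P3 3 and with adult 2 alone), with a median of -2.18 (5 lower without P3 1 and 6 lower without P3 3). Dynlrb2, which encodes a light chain of the dynein motor, was at 16.2, 23.3 and 18.4 TPM in the adult libraries, against 236 and 128 TPM at P3 (log2 -3.12, SE 0.37, limma, Benjamini-Hochberg adjusted p = 0.00121). Ccdc153 (-2.93) and Enkur (-2.33) fell with it. Foxj1, the master factor of motile cilia, was at 0, 0 and 0.0491 TPM in the adult, compared with 0.596 and 0.277 TPM at P3. The summed ependymal level was 294, 252 and 324 TPM in the adult and 747 and 477 TPM at P3. Of 10 choroid plexus markers 5 were tested, of which 1 fell, Folr1 (-2.70, call lost without adult 1, adult 3, E15 1, E15 2, P3 1 or P3 3 and in 4 other alternative fits), and the summed level was 18.1, 7.51 and 6.23 TPM in the adult libraries, against 34.5 and 22.5 TPM at P3. None of the 5 red blood cell markers tested passed the threshold of limma, and their summed level was 17.8, 59.8 and 40.5 TPM in the adult, compared with 18 and 16.2 TPM at P3.

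**Figure D3:**
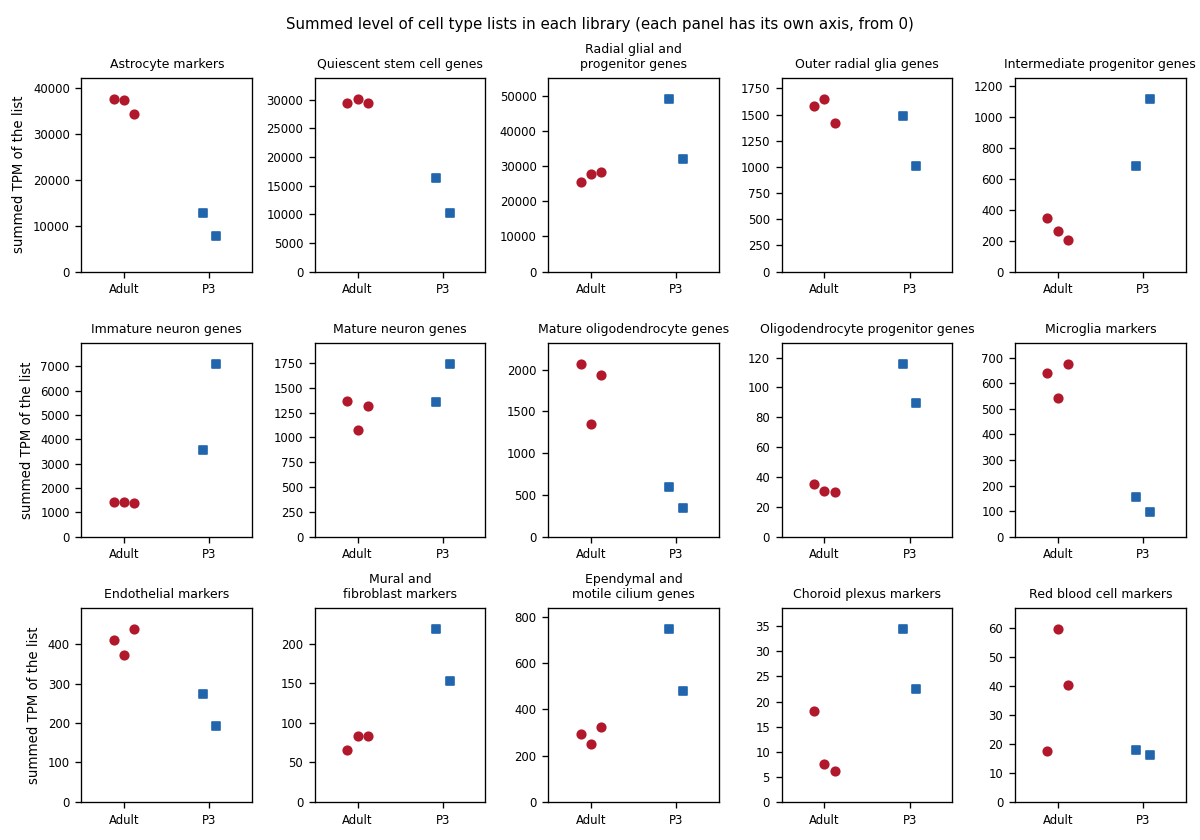
Summed TPM of 15 cell type lists in each library, with adult libraries (red circles) left of P3 libraries (blue squares) and each panel on its own axis from 0. Astrocyte, quiescent stem cell, oligodendrocyte and microglia sums are higher in every adult library, immature neuron, intermediate progenitor, mural and ependymal sums are higher in both P3 libraries, and adult replicate 2 has the lowest adult oligodendrocyte sum.

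The cell division program was lower in the adult. Of 61 mitotic and kinetochore genes 53 fell and none rose, and the list median of -2.62 was the lowest of all 61 lists (23 lower without P3 3). Aurka, a kinase of the spindle poles, was at 2.12, 7.02 and 4.99 TPM in the adult and 61.1 and 130.0 TPM at P3 (log2 -4.08, SE 0.46, limma, Benjamini-Hochberg adjusted p = 0.000948). Ube2c, which hands ubiquitin to the anaphase-promoting complex, was at 18.3, 30.5 and 16.6 TPM in the adult libraries, against 202 and 365 TPM at P3 (log2 -3.63, SE 0.33, limma, Benjamini-Hochberg adjusted p = 0.000416). Ccnb2, a mitotic cyclin, was at 5.83, 13.6 and 9.0 TPM in the adult, compared with 97.4 and 153 TPM at P3 (log2 -3.62, SE 0.34, limma, Benjamini-Hochberg adjusted p = 0.000506). No adult value of these genes came near a P3 value. Cdca8, a subunit of the chromosomal passenger complex (-3.53), Cks2 (-3.32), Ccnb1 (-3.14) and Cdk1, the kinase that drives mitosis (-3.06), fell as well. Mki67, the antigen used to mark cycling cells, was at 1.17, 4.19 and 2.98 TPM in the adult and 20.0 and 33.1 TPM at P3 (log2 -2.91, SE 0.41, limma, Benjamini-Hochberg adjusted p = 0.00243), so these transcripts were low but present in the adult libraries. P3 replicate 3 exceeded P3 replicate 1 by a median of 0.68 over mitotic genes, so the replicate with more mitotic RNA is also the one with more RNA of immature neurons.

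Genes that copy DNA were lower too. Of 46 replication genes 35 fell and 1 rose, with a median of -1.55 (11 lower without P3 3). Top2a, a topoisomerase that untangles DNA (-2.58), Fen1, a flap nuclease (-2.08), Lig1, a DNA ligase (-1.54), and Mcm4, a helicase subunit (-1.32), were among those that fell. Pcna, the sliding clamp of the DNA polymerases, was at 135, 211 and 151 TPM in the adult libraries, against 391 and 444 TPM at P3 (log2 -1.35, SE 0.19, limma, Benjamini-Hochberg adjusted p = 0.00254). The exception was Pola2, the accessory subunit of polymerase alpha, at 99.6, 88.2 and 92.2 TPM in the adult, compared with 36.4 and 41.9 TPM at P3 (log2 1.23, SE 0.17, limma, Benjamini-Hochberg adjusted p = 0.00237). Of 21 G1 cyclins, kinases and inhibitors 3 rose and 7 fell (0 higher without P3 1 or P3 3 and 1 higher without adult 1, E15 1 or E15 2, and 3 lower without P3 3). Cdk4, the kinase of early G1, was at 159.8, 208 and 159 TPM in the adult and 809 and 1453 TPM at P3 (log2 -2.63, SE 0.24, limma, Benjamini-Hochberg adjusted p = 0.000433). Its partners Ccnd1 (-2.33) and Ccnd2 (-1.69) fell with it. Ccnd3 was at 122, 39.6 and 58.2 TPM in the adult libraries, against 26.1 and 22.8 TPM at P3 (log2 1.39, call lost without adult 1, adult 3, E15 1, E15 2, P3 1 or P3 3 and in 6 other alternative fits). The inhibitor gene Cdkn1a was at 58.9, 17.4 and 25.6 TPM in the adult, compared with 5.49 and 6.71 TPM at P3 (log2 2.12, call lost without P3 1 or P3 3 and in 3 other alternative fits).

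Many promoters of mitotic genes carry a short element of the letters TTTGAA, called the cell cycle genes homology region and bound by a repressor complex in resting cells, together with CCAAT boxes bound by NF-Y. Both were searched on both strands of RefSeq promoters (GRCm38.p6, 250 bases before to 50 after each gene's start), and matches can overlap each other by their end letters. Of the 53 mitotic genes that fell, 45 had a promoter entry. TTTGAA was found in 28 of them (62.2%) and CCAAT in 31 (68.9%), against 18.1% and 37.9% of all 27025 promoter entries, and both in 24 (53.3%), against 7.12% of all entries. Of the 35 replication genes that fell, 29 had an entry, of which 5 held TTTGAA (17.2%) and 21 held CCAAT (72.4%). The E2F-type letters TTTCGCGC were in 5 of these 29 (17.2%) and in 1 (2.22%) of the 45 mitotic promoters, against 0.318% of all entries. TTTCCCGC was in 4 (13.8%) of the replication and 2 (4.44%) of the mitotic promoters, against 1.11%. TTTGGCGC was in 3 (10.3%) and 2 (4.44%), against 0.537%. The CRE-type letters TGACGTCA were in 1 replication promoter (3.45%) and 4 (8.89%) of the mitotic ones, against 1.88%. The 140 bases before the start of the 5 mitotic genes with the largest decreases are shown because these genes lead the decrease, with CCAAT and TTTGAA, or their reverse complements ATTGG and TTCAAA, in capitals.
Cdc20, chr4:118437344-118437483, minus strand: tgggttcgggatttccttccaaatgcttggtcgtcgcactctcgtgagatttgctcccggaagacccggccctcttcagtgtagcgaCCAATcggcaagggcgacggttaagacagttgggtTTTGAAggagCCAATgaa
Aurka, chr2:172370571-172370710, minus strand: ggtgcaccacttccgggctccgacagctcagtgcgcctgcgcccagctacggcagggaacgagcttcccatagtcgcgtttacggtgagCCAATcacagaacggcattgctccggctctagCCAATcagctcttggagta
Ube2c, chr2:164769789-164769928, plus strand: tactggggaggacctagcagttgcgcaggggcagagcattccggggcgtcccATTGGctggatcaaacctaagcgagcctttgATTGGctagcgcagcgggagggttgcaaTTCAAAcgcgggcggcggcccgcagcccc
Ccnb2, chr9:70421555-70421694, minus strand: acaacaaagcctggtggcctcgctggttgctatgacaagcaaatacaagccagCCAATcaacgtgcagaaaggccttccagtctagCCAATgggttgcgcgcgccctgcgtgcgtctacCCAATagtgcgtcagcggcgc
Cdca8, chr4:124936918-124937057, minus strand: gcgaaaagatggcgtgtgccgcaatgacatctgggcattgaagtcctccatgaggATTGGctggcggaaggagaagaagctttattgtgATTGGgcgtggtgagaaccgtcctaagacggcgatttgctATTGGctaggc
Each stretch holds 2 or 3 CCAAT boxes, and those of Cdc20 and Ube2c also hold 1 TTTGAA. A match is a description of letters and not a measured binding site. Mitotic and replication genes that did not fall were not set apart for comparison. A link between these letters and the decrease was therefore not tested.

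Chromatin proteins of dividing cells fell along with the cell cycle genes, with 22 lower and 1 higher of 31 and a median of -1.12 (9 lower without P3 3). The histone variant gene H2afz was at 788, 1096 and 928 TPM in the adult and 3267 and 4319.9 TPM at P3 (log2 -2.01, SE 0.17, limma, Benjamini-Hochberg adjusted p = 0.000328). Hmgn2, which encodes a nucleosome-binding protein, was at 1669, 2081 and 1576 TPM in the adult libraries, against 5815 and 5566 TPM at P3 (log2 -1.69, SE 0.13, limma, Benjamini-Hochberg adjusted p = 0.000285). The stages did not overlap for either gene, and the adult levels of both stayed high. The linker histone gene Hist1h1c moved the other way (1.91, call lost with adult 2 alone), and its copies share sequence with other linker histones. Of 21 Polycomb subunits 2 rose and 6 fell (1 higher without P3 3, and 0 lower without P3 3 and 2 lower without adult 3, E15 1 or E15 2). Of all genes tested 8.39% were higher and 13.8% lower, and of the Polycomb subunits 9.52% and 28.6%. Cbx7, a reader of the repressive histone mark, was at 11.4, 15.8 and 13.3 TPM in the adult, compared with 1.7 and 0.957 TPM at P3 (log2 2.65, SE 0.40, limma, Benjamini-Hochberg adjusted p = 0.00294). Ezh2, the enzyme that writes it, was at 75.1, 81.3 and 65.9 TPM in the adult and 114 and 224 TPM at P3 (log2 -1.11, SE 0.26, limma, Benjamini-Hochberg adjusted p = 0.0197, call lost without adult 3, E15 1, E15 2 or P3 3 and in 4 other alternative fits). Of 15 DNA methylation genes 2 rose and 3 fell (0 higher without E15 1, E15 2, P3 1 or P3 3 and 1 higher without adult 1 or adult 2, and 0 lower without P3 3 and 1 lower without P3 1). The DNA methylation list was thus 13.3% higher and 20% lower, shares near those of all genes. The maintenance methyltransferase gene Dnmt1 was at 25.2, 23.1 and 21.8 TPM in the adult libraries, against 33.6 and 40.1 TPM at P3 (log2 -0.63, SE 0.20, limma, Benjamini-Hochberg adjusted p = 0.0568). Fetal timing genes were lower in 33.3%, and imprinted growth genes were higher in 18.2% and lower in 18.2%, on lists of 6 and 11 genes. Of 6 fetal timing genes 2 fell, Mycn (-1.81, call lost without P3 3) and Igf2bp3 (-1.18, call lost without P3 3 and with adult 2 alone), with 0 lower without P3 3. Of 11 imprinted growth genes 2 rose and 2 fell (0 higher without P3 3 and 1 higher without adult 1, adult 2, E15 1, E15 2 or P3 1, and 1 lower without adult 3, E15 1, E15 2 or P3 3). Peg3 (0.91, call lost without P3 3, with the replicate block and with adult 2 alone) and Impact (0.75, call lost without adult 1, adult 2, E15 1, E15 2, P3 1 or P3 3 and in 3 other alternative fits) were the higher ones, and Mest (-2.14, call lost without adult 3, E15 1, E15 2, P3 1 or P3 3 and in 7 other alternative fits) and Grb10 the lower ones.

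Transcription factors of glial fate split within families. The NFI factors switch on astrocyte genes in development, and 3 of them were lower in the adult. Nfix was at 91.3, 83.7 and 126 TPM in the adult, compared with 327 and 434 TPM at P3 (log2 -1.92, SE 0.21, limma, Benjamini-Hochberg adjusted p = 0.00081). Nfib was at 107, 106 and 104 TPM in the adult and 285 and 437 TPM at P3 (log2 -1.73, SE 0.19, limma, Benjamini-Hochberg adjusted p = 0.000842). Nfia was at 76.3, 83.1 and 83.1 TPM in the adult libraries, against 160.5 and 180.3 TPM at P3 (log2 -1.07, SE 0.15, limma, Benjamini-Hochberg adjusted p = 0.00237). All adult values of the 3 genes lay below those of P3. Nfic, of the same family, went the other way and was at 11, 29.6 and 15.4 TPM in the adult, compared with 3.53 and 6.16 TPM at P3 (log2 1.68, call lost without adult 2, adult 3, E15 1, E15 2, P3 1 or P3 3 and in 3 other alternative fits). The homeobox gene Dbx2 was at 99.9, 92.4 and 84.1 TPM in the adult and 11.5 and 5.59 TPM at P3 (log2 3.36, SE 0.32, limma, Benjamini-Hochberg adjusted p = 0.000542). Of 21 NFI and gliogenic factors 4 rose and 4 fell (1 higher without adult 2 or P3 3 and 2 higher without P3 1), with shares of 19% higher and 19% lower, where 8.39% and 13.8% of all genes tested were called. Of 16 Sox and Id factors 3 rose and 4 fell (18.8% higher and 25% lower). The Id proteins block basic helix-loop-helix factors, and their genes also split. Id4 was at 368, 323 and 349 TPM in the adult libraries, against 98.3 and 78.5 TPM at P3 (log2 1.97, SE 0.17, limma, Benjamini-Hochberg adjusted p = 0.000359). Id2 (1.25, call lost with adult 2 alone) was higher as well, while Id3 and Id1 (-1.57, call lost with adult 2 alone) were lower. Sox11 was lower (-2.95, call lost with adult 2 alone). Sox9, a factor of astrocytes, was at 345, 320.3 and 344 TPM in the adult, compared with 276 and 206 TPM at P3 (log2 0.49, SE 0.16, limma, Benjamini-Hochberg adjusted p = 0.0558).

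The shares of developmental signaling genes called lay near or under those of all genes, apart from the lower calls of the Wnt pathway. All genes tested gave 8.39% higher and 13.8% lower, the Notch list 8% higher and 12% lower, the Wnt list 12.1% higher and 30.3% lower, the hedgehog list 9.09% higher and 9.09% lower and the BMP and TGF-beta list 3.57% higher and 3.57% lower. Of 25 Notch pathway genes 2 rose and 3 fell (0 to 1 higher without any 1 of the 7 libraries). Lfng, which modifies Notch receptors (1.23, call lost without adult 1, adult 2, P3 1 or P3 3, with the replicate block and with adult 2 alone), was higher, and Hes6 (-1.22, call lost without adult 2, adult 3, E15 1, E15 2, P3 1 or P3 3 and in 7 other alternative fits) was lower with Hes5. Notch1 itself was at 13.8, 21.2 and 16.2 TPM in the adult and 12.7 and 14.1 TPM at P3 (log2 0.30, SE 0.27, limma, Benjamini-Hochberg adjusted p = 0.475). Of 33 Wnt pathway genes 4 rose and 10 fell (1 higher without P3 3 and 2 higher without adult 2, and 2 to 6 lower without adult 2, E15 1, E15 2, P3 1 or P3 3), with a median of -0.12, which changed sign over the alternatives other than leaving out 1 library (-0.29 to 0.02) and was -0.29 to -0.06 in those. Ctnnb1, the beta-catenin gene, was at 128, 189 and 163 TPM in the adult libraries, against 385 and 503 TPM at P3 (log2 -1.47, SE 0.19, limma, Benjamini-Hochberg adjusted p = 0.00172). The receptor gene Fzd2 was higher (1.94, call lost with adult 2 alone), and the secreted inhibitor gene Wif1 was listed at 0 in the adult, against 10.8 and 2.9 TPM at P3. Of 11 hedgehog pathway genes 1 rose, the receptor gene Ptch1 (1.40, call lost without P3 3 and with adult 2 alone), and 1 fell, Cdon (-1.60, call lost without adult 1, adult 3, E15 1, E15 2 or P3 3 and in 3 other alternative fits), with 2 higher without adult 1. Of 28 BMP and TGF-beta genes 1 rose, Bambi (1.5, call lost without P3 1 or P3 3 and with adult 2 alone), and 1 fell, Smad5 (-1.20, call lost without P3 1 and with adult 2 alone), with 3 lower without adult 1.

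Growth factor genes were higher in 8 cases and lower in 4 of 28 (4 higher and 2 lower without P3 3). With all libraries the shares were 28.6% higher and 14.3% lower, against 8.39% and 13.8% of all genes tested. The lower share was thus near that of all genes. Mertk, a receptor kinase that astrocytes use to engulf synapses, was at 158, 116 and 123 TPM in the adult, compared with 9.67 and 4.03 TPM at P3 (log2 4.17, SE 0.38, limma, Benjamini-Hochberg adjusted p = 0.000446). The fibroblast growth factor receptor gene Fgfr3 was at 243, 226 and 214 TPM in the adult and 45.3 and 29.1 TPM at P3 (log2 2.61, SE 0.22, limma, Benjamini-Hochberg adjusted p = 0.000328). Ntrk2, the receptor gene for brain-derived neurotrophic factor, was at 246, 249 and 242 TPM in the adult libraries, against 49.4 and 32.5 TPM at P3 (log2 2.59, SE 0.21, limma, Benjamini-Hochberg adjusted p = 0.000311). For all 3 receptor genes the adult values were several times those of P3. Vegfa, which promotes vessel growth, was higher as well (1.49). Nrg1, an ErbB receptor ligand, went against them at 0.712, 1.34 and 1.55 TPM in the adult, compared with 15.5 and 28.3 TPM at P3 (log2 -3.34, SE 0.35, limma, Benjamini-Hochberg adjusted p = 0.00077). Axon guidance genes were lower in 22.9% and higher in 2.08%. Of 48 axon guidance genes 11 fell and 1 rose, the semaphorin receptor gene Plxnb1 (1.32, call lost without P3 3 and with adult 2 alone), with 2 higher without adult 2 and 3 higher without adult 3, and 1 lower without P3 3. The netrin receptor gene Dcc was at 0.501, 1.23 and 0.531 TPM in the adult and 6.55 and 39.2 TPM at P3 (log2 -3.34, SE 0.62, limma, Benjamini-Hochberg adjusted p = 0.00737, call lost with adult 2 alone), with P3 replicate 3 well above replicate 1.

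Related proteoglycan genes went opposite ways. The collagen, laminin and integrin list and the cadherin list were lower less often than all genes and higher somewhat more often, on few calls. Where all genes tested gave 8.39% higher and 13.8% lower, the proteoglycan list gave 21.4% higher and 25% lower, the collagen, laminin and integrin list 15% higher and 10% lower and the cadherin list 10.7% higher and 3.57% lower. Of 28 proteoglycan and hyaluronan genes 6 rose and 7 fell (3 lower without P3 3), and the median of -0.08 changed sign over the same alternatives (-0.40 to 0.14) and over the fits that left out 1 library (-0.27 to 0.10). Ncan, a chondroitin sulfate proteoglycan of the young brain, was at 44.6, 33 and 33.6 TPM in the adult libraries, against 406 and 373 TPM at P3 (log2 -3.37, SE 0.19, limma, Benjamini-Hochberg adjusted p = 7.73e-05). Bcan, its relative in the mature perineuronal matrix, was at 251, 244 and 239.5 TPM in the adult, compared with 79.4 and 60.6 TPM at P3 (log2 1.80, SE 0.17, limma, Benjamini-Hochberg adjusted p = 0.000547). For these related genes the stages did not overlap and the order was opposite. The heparan sulfate proteoglycan genes Gpc5 (4.0) and Sdc4 (2.97) rose, and Has2, which makes hyaluronan, fell (-2.75). Of 40 collagens, laminins and integrins 6 rose and 4 fell (3 higher and 2 lower without P3 3). Nid1, a basement membrane linker, was at 0, 0.386 and 0.0599 TPM in the adult and 13.8 and 8.19 TPM at P3 (log2 -3.36, SE 0.40, limma, Benjamini-Hochberg adjusted p = 0.00128). The integrin gene Itgb1 fell (-1.44) and Col11a2 rose (2.25). Of 28 cadherins 3 rose and 1 fell (1 higher without P3 3, and 2 lower without adult 1, adult 2, adult 3 or P3 1), led by Cdh19 at 25.9, 37.7 and 24 TPM in the adult libraries, against 1.04 and 0.175 TPM at P3 (log2 4.26, SE 0.39, limma, Benjamini-Hochberg adjusted p = 0.000433).

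Cytoskeletal genes of growing cells were lower. Of 14 tubulin isotypes 6 fell and 1 rose, with a median of -1.22 (-1.49 to -0.81 in the fits that left out 1 library). Tuba1a, the main alpha tubulin of young neurons, was at 1201, 1228 and 1189 TPM in the adult, compared with 3567 and 5282 TPM at P3 (log2 -1.85, SE 0.15, limma, Benjamini-Hochberg adjusted p = 0.000311). Tuba1c (-3.43), Tuba1b (-1.70) and Tubb5 (-1.79) fell. Tuba4a, an alpha tubulin of mature cells, was at 80.5, 83.3 and 75.7 TPM in the adult and 6.32 and 8.84 TPM at P3 (log2 3.25, SE 0.23, limma, Benjamini-Hochberg adjusted p = 0.000185). Tubulins are similar in sequence, and the sources used here do not say how reads were shared between them. Of 30 microtubule and growth cone genes 16 fell and 2 rose (1 higher without adult 2 or P3 3, and 10 lower without P3 3). Marcks, a membrane-bound actin regulator, was at 77.3, 81.3 and 77.7 TPM in the adult libraries, against 579.8 and 547 TPM at P3 (log2 -2.82, SE 0.13, limma, Benjamini-Hochberg adjusted p = 3.57e-05). Marcksl1 (-2.72), Tmsb10 (-2.47) and Dpysl2 (-1.34) fell with it, and the microtubule-associated gene Map4 rose (1.62). Of 7 intermediate filament genes, Vim and Nes fell and the neurofilament gene Nefl was at 16.2, 2.48 and 6.14 TPM in the adult, compared with 0.0565 and 0.060 TPM at P3 (log2 2.83, call lost without P3 1 or P3 3 and with no filter on low values), with 2 higher without adult 2, and 1 lower without P3 3.

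Genes of protein synthesis fell, those of ribosomal proteins nearly all and those of translation factors and ribosome biogenesis in part. Of 79 cytosolic ribosomal protein genes 74 fell and none rose, with a median of -1.06 (62 lower without P3 replicate 3). Rplp0, of the ribosomal stalk, was at 277, 347 and 321 TPM in the adult and 873 and 1193 TPM at P3 (log2 -1.70, SE 0.16, limma, Benjamini-Hochberg adjusted p = 0.000518). Rps3a1 was at 375, 363 and 351 TPM in the adult libraries, against 1317 and 1218 TPM at P3 (log2 -1.80, SE 0.11, limma, Benjamini-Hochberg adjusted p = 9.51e-05). Rpl13 was at 428, 384 and 382 TPM in the adult, compared with 1164 and 1463 TPM at P3 (log2 -1.71, SE 0.13, limma, Benjamini-Hochberg adjusted p = 0.000247). Each adult value lay well below each P3 value. These genes have many processed copies in the genome that can share reads. Of 40 translation factors 19 fell and 1 rose, with a median of -0.87. The elongation factor gene Eef1a1 was at 1307, 1319 and 1167 TPM in the adult and 3046 and 4581 TPM at P3 (log2 -1.56, SE 0.16, limma, Benjamini-Hochberg adjusted p = 0.00074). The elongation factor genes Eef1g (-1.59) and Eef2 (-1.31) fell, as did the initiation factor genes Eif5a (-1.75), Eif3d (-1.62) and Eif4a1 (-1.59). Of 45 ribosome biogenesis genes 14 fell and none rose (1 lower without P3 3). Differences reached from -1.80 to -0.26 over the ribosomal protein genes, from -1.75 to 0.77 over the translation factors and from -1.68 to 0.79 over the biogenesis genes. Npm1, a nucleolar chaperone, was at 343, 340.5 and 355 TPM in the adult libraries, against 769 and 1099 TPM at P3 (log2 -1.41, SE 0.16, limma, Benjamini-Hochberg adjusted p = 0.000904). P3 replicate 3 was above replicate 1 in all 3 lists, by medians of 0.26, 0.27 and 0.40.

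Splicing genes were lower too. Of 58 spliceosome and hnRNP genes 26 fell and 1 rose, with a median of -0.60 (2 higher without adult 1, and 9 lower without P3 3). Hnrnpa1, an RNA-binding protein of splicing, was at 152, 133 and 138 TPM in the adult, compared with 399.9 and 787 TPM at P3 (log2 -1.99, SE 0.26, limma, Benjamini-Hochberg adjusted p = 0.00164). Ptbp2, a splicing repressor of developing neurons, was at 61.1, 60.5 and 60.1 TPM in the adult and 137 and 173 TPM at P3 (log2 -1.33, SE 0.16, limma, Benjamini-Hochberg adjusted p = 0.00123). Of 35 neural RNA-binding proteins 4 rose and 5 fell (0 to 2 higher without adult 1, adult 2, E15 1, E15 2 or P3 3, and 2 lower without P3 3), shares of 11.4% higher and 14.3% lower that are near those of all genes tested. The neuronal gene Elavl2 was at 6.69, 11.3 and 8.4 TPM in the adult libraries, against 38.9 and 109 TPM at P3 (log2 -2.78, SE 0.41, limma, Benjamini-Hochberg adjusted p = 0.00268, call lost with adult 2 alone).

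More genes of energy metabolism rose than fell, and the mitochondrially encoded ones had the highest median. Of 13 mitochondrially encoded genes 12 rose, with a median of 1.17 (9 higher without P3 replicate 3). mt-Cytb, the cytochrome b gene of complex III, was at 7371, 6826 and 8430.1 TPM in the adult, compared with 2438 and 2545 TPM at P3 (log2 1.59, SE 0.12, limma, Benjamini-Hochberg adjusted p = 0.00022). mt-Nd2, of complex I, was at 2183, 2047 and 2644 TPM in the adult and 614 and 621 TPM at P3 (log2 1.88, SE 0.16, limma, Benjamini-Hochberg adjusted p = 0.000321). The adult values were all above those of P3, and the P3 libraries lay close together. The exception was mt-Atp8, at 0, 0 and 8.58 TPM in the adult libraries, against 19.5 and 13.8 TPM at P3 (log2 -3.04, call lost without adult 1, adult 2, E15 1, E15 2, P3 1 or P3 3 and in 8 other alternative fits). Nuclear copies of mitochondrial sequence can share these reads. Of 76 nuclear oxidative phosphorylation genes 14 rose and 1 fell, with a median of 0.14. The counts moved without 1 library (1 to 9 higher without adult 2, adult 3, E15 1, E15 2 or P3 3, and 4 lower without adult 3), and the number that rose was 31 with quantile normalization and 0 without the variance trend. The median ranged over 0.08 to 0.21 in the fits that left out 1 library. Atp5j, a subunit of the ATP synthase, was at 1701, 1691 and 1652 TPM in the adult, compared with 1201 and 1207 TPM at P3 (log2 0.48, SE 0.09, limma, Benjamini-Hochberg adjusted p = 0.00853, call lost with adult 2 alone and without the variance trend).

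Glycolytic and glycogen genes rose more often than they fell, and the subunits of lactate dehydrogenase went opposite ways. Of 39 glycolysis, glycogen and lactate genes 11 rose and 4 fell (7 higher without P3 3, and 1 lower without P3 3 and 2 lower without adult 3, E15 1 or E15 2). Ldhb, the lactate dehydrogenase subunit of oxidative tissue, was at 2095, 2001 and 1989.7 TPM in the adult and 681 and 716 TPM at P3 (log2 1.54, SE 0.10, limma, Benjamini-Hochberg adjusted p = 0.000146). Ldha, the subunit of glycolytic tissue, was at 202, 188 and 202 TPM in the adult libraries, against 645 and 716 TPM at P3 (log2 -1.78, SE 0.12, limma, Benjamini-Hochberg adjusted p = 0.000155). Per length, Ldha and Ldhb were at like levels at P3, whereas each adult library held far more Ldhb than Ldha. The phosphofructokinase genes Pfkp (3.01) and Pfkm (1.54), the pyruvate dehydrogenase kinase gene Pdk2 (1.66) and Slc2a1 rose. Of 20 citric acid cycle genes 4 rose and 1 fell (2 higher without P3 1 or P3 3, and 2 lower without adult 3 and 4 lower without adult 1), Suclg1 being higher (1.17) and the cytosolic enzyme gene Idh1 lower (-1.33). Of 33 fatty acid oxidation and ketone genes 6 rose and 1 fell (0 to 3 higher without adult 1, E15 1, E15 2 or P3 3). Oxct1, which uses ketone bodies, was at 184, 207 and 158 TPM in the adult, compared with 115 and 91.3 TPM at P3 (log2 0.82, SE 0.18, limma, Benjamini-Hochberg adjusted p = 0.016, call lost without P3 3, with adult 2 alone and without the variance trend).

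**Figure D4:**
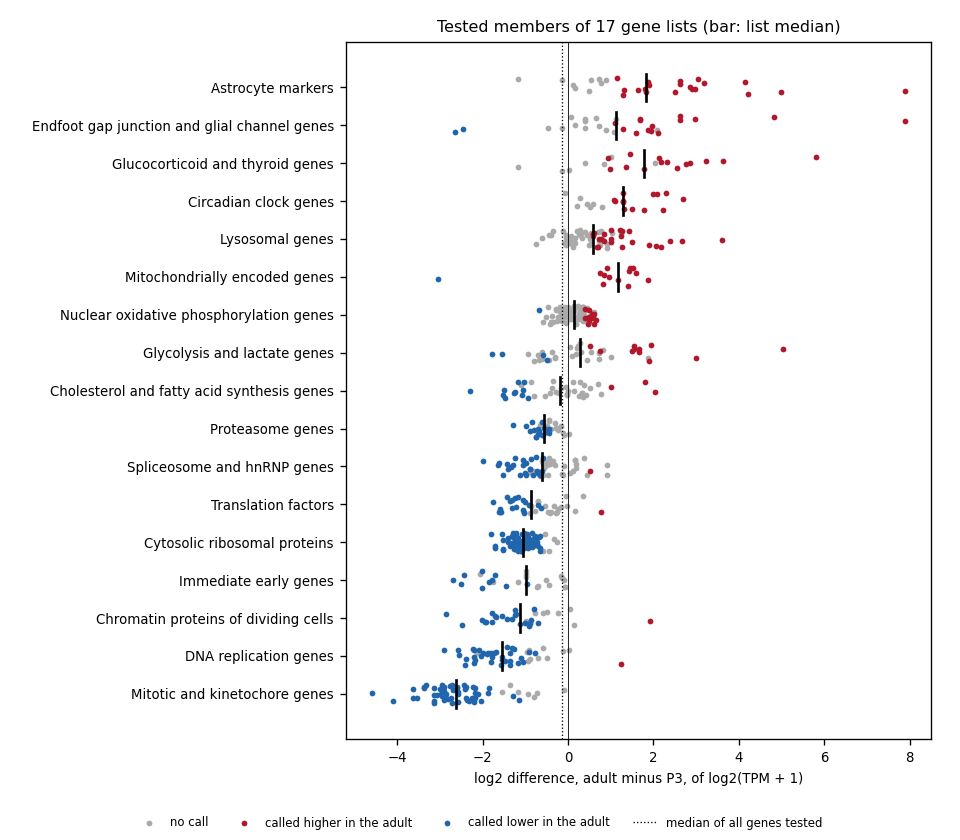
Difference in log2(TPM + 1), adult minus P3, of each tested member of 17 gene lists, with a bar at each list median and a dotted line at the median of all genes tested (-0.13). Mitotic genes lie farthest to the left (median -2.62), ribosomal protein genes form a narrow group at -1.06, and astrocyte markers reach from -1.17 (Gfap) to 7.88 (Gjb6).

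Genes of cholesterol and fatty acid synthesis were lower in 27.5% and higher in 7.5%, where 13.8% and 8.39% of all genes tested were. Their median of -0.18 was near that of all genes (-0.13). Lipid carriers were higher in 33.3% and lower in 11.1%. Of 40 cholesterol and fatty acid synthesis genes 11 fell and 3 rose (1 higher without P3 3, and 6 lower without E15 1, E15 2, P3 1 or P3 3). Hmgcs1, which begins the mevalonate pathway, was at 119, 93.1 and 107 TPM in the adult and 600.3 and 449 TPM at P3 (log2 -2.28, SE 0.19, limma, Benjamini-Hochberg adjusted p = 0.000328). Fdps (-1.52), Acat2 (-1.5) and Cyp51 (-1.48, call lost with adult 2 alone) fell with it. Srebf1, a factor that drives fatty acid synthesis, was at 46.2, 45.9 and 37.6 TPM in the adult libraries, against 11.4 and 8.19 TPM at P3 (log2 2.04, SE 0.26, limma, Benjamini-Hochberg adjusted p = 0.00151). Of 27 apolipoproteins and lipid carriers 9 rose and 3 fell (1 lower without adult 1, adult 3, E15 1 or E15 2). Clu and Apoe were among those that rose and Fabp7 among those that fell. The list median was 0.50, and 0.35 without P3 3.

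Genes of the lysosome were higher and genes of the proteasome lower. Of 64 lysosomal genes 24 rose and none fell, with a median of 0.58 (6 higher without P3 3). Psap, the precursor of the saposins that help degrade sphingolipids, was at 118, 111 and 142 TPM in the adult, compared with 46.4 and 39.3 TPM at P3 (log2 1.5, SE 0.20, limma, Benjamini-Hochberg adjusted p = 0.00172). Atp6v0e, a subunit of the proton pump, was at 1717, 1733 and 1612 TPM in the adult and 785 and 626 TPM at P3 (log2 1.26, SE 0.12, limma, Benjamini-Hochberg adjusted p = 0.000574). Ctso, a cathepsin gene, rose as well (1.89), and Ctss is also a microglia marker. Of 32 proteasome genes 18 fell and none rose, with a median of -0.55 (fewer lower without adult 3, E15 1, E15 2 or P3 3). Only 4 were lower without the variance trend and 8 with median-of-ratios scaling. The median was -0.63 to -0.43 in the fits that left out 1 library. Psmd2, of the regulatory particle, was at 49.9, 53.1 and 69.5 TPM in the adult libraries, against 135 and 148 TPM at P3 (log2 -1.30, SE 0.20, limma, Benjamini-Hochberg adjusted p = 0.003). Of 36 chaperones 16 fell and 4 rose (2 higher and 9 lower without P3 3). Hspa8, the constitutive heat shock cognate, was at 799.7, 807 and 867 TPM in the adult, compared with 2199.7 and 3000.4 TPM at P3 (log2 -1.64, SE 0.14, limma, Benjamini-Hochberg adjusted p = 0.000359). The chaperonin gene Cct5 (-1.57) and the endoplasmic reticulum chaperone gene Hspa5 (-1.24) were lower, against Cryab, which was higher.

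Most genes of glucocorticoid and thyroid hormone handling and response, and most genes of the circadian clock, were higher in the adult. Of 21 glucocorticoid and thyroid hormone genes 14 rose and none fell, with a median of 1.79 (7 higher without P3 3 and 8 higher without P3 1). Tsc22d3, a glucocorticoid-induced leucine zipper gene, was at 523, 442 and 386 TPM in the adult and 64.8 and 66.2 TPM at P3 (log2 2.75, SE 0.18, limma, Benjamini-Hochberg adjusted p = 0.000117). Klf9, which both hormones induce, was at 76, 74.2 and 68.6 TPM in the adult libraries, against 14.8 and 9.04 TPM at P3 (log2 2.55, SE 0.27, limma, Benjamini-Hochberg adjusted p = 0.000733). The mineralocorticoid receptor gene Nr3c2 rose (2.31). The glucocorticoid receptor gene Nr3c1 was at 35.3, 36.7 and 30.8 TPM in the adult, compared with 23.5 and 14.5 TPM at P3 (log2 0.85, SE 0.29, limma, Benjamini-Hochberg adjusted p = 0.0679). Of 20 circadian clock genes 13 rose and none fell, with a median of 1.28 (2 higher without P3 3 and 4 higher without P3 1). Nr1d1, the repressor Rev-erb alpha, was at 22.4, 24.1 and 23.5 TPM in the adult and 2.38 and 3.26 TPM at P3 (log2 2.68, SE 0.30, limma, Benjamini-Hochberg adjusted p = 0.000957). The output factor Dbp was at 35.4, 59.6 and 49.2 TPM in the adult libraries, against 9.48 and 8.08 TPM at P3 (log2 2.30, SE 0.45, limma, Benjamini-Hochberg adjusted p = 0.00933, call lost without P3 1 or P3 3, with a pseudocount of 0.1 and with adult 2 alone). The activators did not pass and their stages overlapped. Arntl was at 22.9, 23.2 and 11.7 TPM in the adult, compared with 23.7 and 10.6 TPM at P3 (log2 0.20, SE 0.42, limma, Benjamini-Hochberg adjusted p = 0.778). Clock was at 29, 25.1 and 19.2 TPM in the adult and 19.3 and 20.1 TPM at P3 (log2 0.28, SE 0.25, limma, Benjamini-Hochberg adjusted p = 0.476). The sources used here do not give the time of day at which tissue was taken.

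Immediate early genes, which cells switch on within minutes of a stimulus or of dissociation, went the other way. Of 25 tested 10 fell and none rose, with a median of -0.98 (6 lower without P3 1). Fos was at 90.4, 64.8 and 51.2 TPM in the adult libraries, against 459 and 317 TPM at P3 (log2 -2.49, SE 0.26, limma, Benjamini-Hochberg adjusted p = 0.000749). Egr1 was at 17.3, 10.1 and 10.1 TPM in the adult, compared with 106 and 65.3 TPM at P3 (log2 -2.68, SE 0.34, limma, Benjamini-Hochberg adjusted p = 0.00151). Ier2 was at 3.91, 4.28 and 4.58 TPM in the adult and 18.5 and 22.4 TPM at P3 (log2 -2.02, SE 0.26, limma, Benjamini-Hochberg adjusted p = 0.00162). Each adult library was below both P3 libraries for these genes. Of 40 metallothionein and antioxidant genes 15 rose and 6 fell (9 higher and 3 lower without P3 3). Mt2 was at 6245, 6497 and 7889 TPM in the adult libraries, against 1234 and 720.3 TPM at P3 (log2 2.86, SE 0.21, limma, Benjamini-Hochberg adjusted p = 0.000219). The glutathione transferase genes Gstm1 (2.41) and Gstm5 (2.49) rose by like amounts, while thioredoxin, Txn1, was lower (-0.80). Of 33 antigen presentation and interferon genes 8 rose and 2 fell (4 higher without P3 3, and 1 lower without E15 1, E15 2 or P3 3). B2m, the light chain of class I molecules, was at 899.9, 906 and 722 TPM in the adult, compared with 355 and 196 TPM at P3 (log2 1.67, SE 0.24, limma, Benjamini-Hochberg adjusted p = 0.00258). The complement gene C4b was at 89.1, 65.9 and 77.3 TPM in the adult and 5.88 and 6.54 TPM at P3 (log2 3.43, SE 0.28, limma, Benjamini-Hochberg adjusted p = 0.000292).

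Among genes of the machinery of mature astrocytes more rose than fell. These lists share members with the astrocyte marker list, among them Gjb6, Gja1, Atp1b2, Slc1a2 and Glul, and are not separate evidence. Of 29 endfoot, gap junction and channel genes 14 rose and 2 fell (1 lower without P3 3), with a median of 1.13. Gja1, the other main connexin of astrocytes, was at 1753, 1513 and 1472 TPM in the adult libraries, against 549 and 331 TPM at P3 (log2 1.88, SE 0.21, limma, Benjamini-Hochberg adjusted p = 0.000965). It was thus abundant already at P3, where Gjb6 was nearly absent. The sodium pump gene Atp1b2 (2.63), the adhesion gene Hepacam (1.95) and the chloride channel gene Clcn2 (2.10) rose, and the pannexin gene Panx1 fell (-2.45). Of 26 transmitter transport genes 10 rose and 3 fell (6 higher without P3 3, and 0 lower without P3 3 and 1 lower without E15 1, E15 2 or P3 1). Slc1a2, the transporter that clears most synaptic glutamate, was at 989, 967 and 848 TPM in the adult, compared with 225 and 117 TPM at P3 (log2 2.52, SE 0.29, limma, Benjamini-Hochberg adjusted p = 0.00103). Glul, which turns glutamate into glutamine, was at 703, 715 and 742 TPM in the adult and 212 and 193 TPM at P3 (log2 1.83, SE 0.13, limma, Benjamini-Hochberg adjusted p = 0.000179). Slc7a10, a carrier of serine and alanine, was at 262, 239 and 241 TPM in the adult libraries, against 23.9 and 16.9 TPM at P3 (log2 3.56, SE 0.24, limma, Benjamini-Hochberg adjusted p = 0.00017).

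Receptors and synapse factors gave the last group. Its receptor list holds Ntsr2, which is also on the astrocyte marker list. Of 35 G protein-coupled receptors 9 rose and 5 fell (2 lower without P3 3 and 3 lower without adult 3, E15 1 or E15 2). Gpr37l1, a receptor of mature astrocytes, was at 426, 413 and 407 TPM in the adult, compared with 25.2 and 12.8 TPM at P3 (log2 4.45, SE 0.28, limma, Benjamini-Hochberg adjusted p = 0.000115). S1pr1, a sphingosine phosphate receptor gene, was at 369, 384 and 375 TPM in the adult and 105 and 69.8 TPM at P3 (log2 2.12, SE 0.20, limma, Benjamini-Hochberg adjusted p = 0.000518). The metabotropic glutamate receptor gene Grm5, which young astrocytes express, was at 16.9, 10.5 and 12.4 TPM in the adult libraries, against 46.8 and 44.3 TPM at P3 (log2 -1.73, SE 0.25, limma, Benjamini-Hochberg adjusted p = 0.0026). The thrombin receptor gene F2r was lower too (-2.52). Of 28 genes that form or clear synapses 12 rose and 1 fell, Wnt5a (-2.32, call lost without P3 3), with 5 higher without P3 3. Il33, a cytokine by which astrocytes call on microglia, was at 72.2, 47.8 and 42.2 TPM in the adult, compared with 2.19 and 1.97 TPM at P3 (log2 4.12, SE 0.34, limma, Benjamini-Hochberg adjusted p = 0.000311). The thrombospondin gene Thbs4 was at 27.6, 33.2 and 30.8 TPM in the adult and 1.74 and 0.701 TPM at P3 (log2 3.87, SE 0.38, limma, Benjamini-Hochberg adjusted p = 0.000553). Every adult library was above both P3 libraries for both genes.

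**Figure D5:**
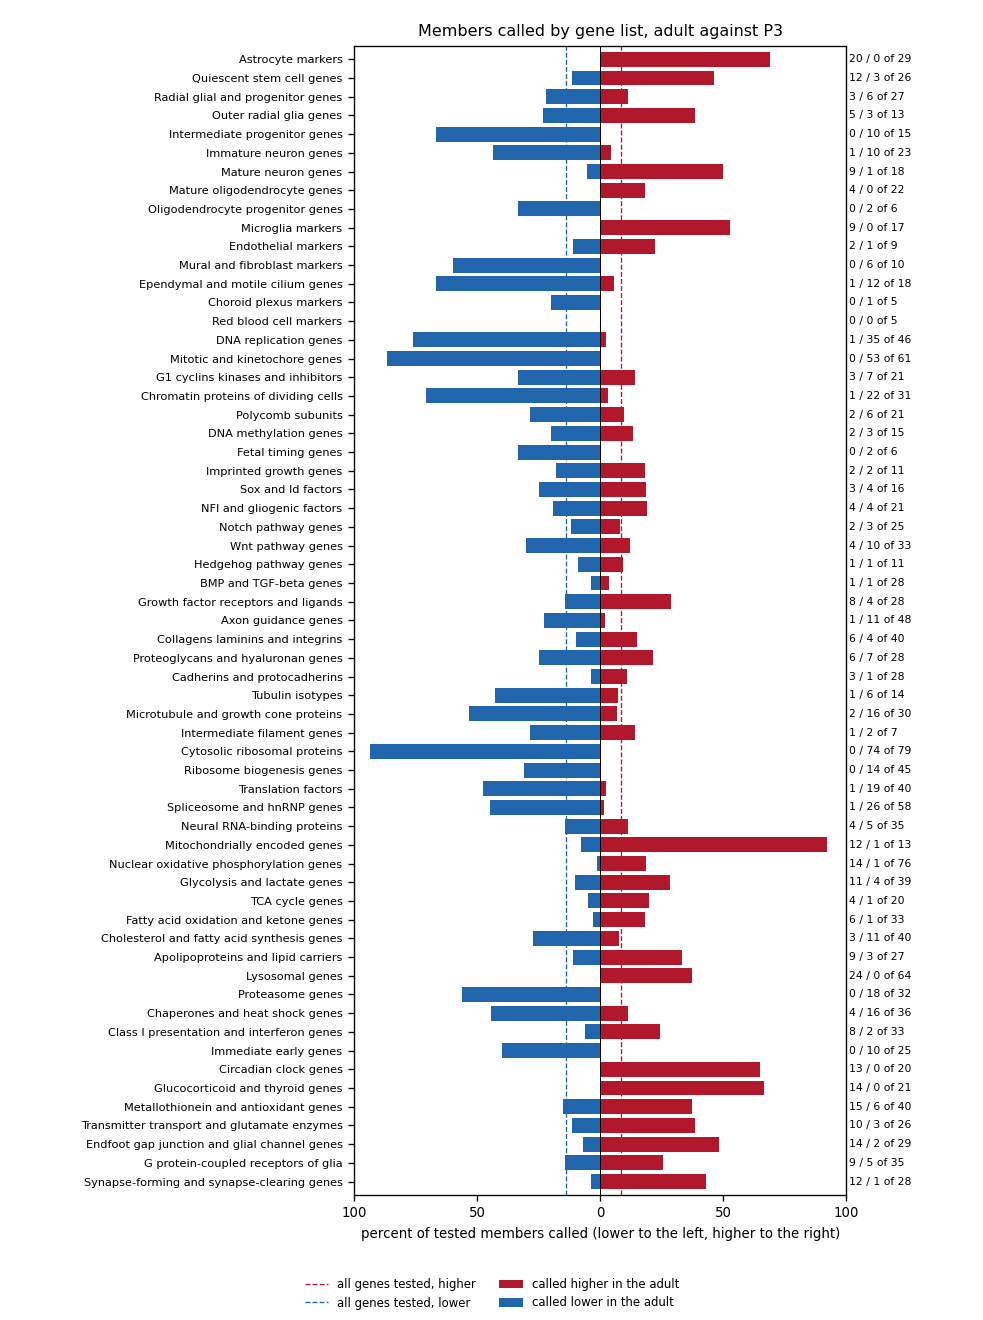
Percent of the tested members of each of 61 gene lists called higher (red, to the right) or lower (blue, to the left) in the adult, with the counts of higher and lower members at the right edge and dashed lines at the shares of all genes tested (8.39% higher, 13.8% lower). Ribosomal protein, mitotic and replication lists reach farthest to the left, and mitochondrially encoded, astrocyte, glucocorticoid and thyroid, and clock lists reach farthest to the right.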

How the data were processed

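RNA was measured in 7 sequencing libraries of HopX-positive mouse brain cells, of which 3 adult and 2 P3 libraries are compared here. Per the labels' protocols, RNeasy mini columns were used for total RNA and a Bioanalyser for its quality. The submitters' processing notes name Bowtie, bcl2fastq and build mm9 without versions. The sources used here do not give the program behind the expression values, its annotation or its use of strand. The authors deposited TPM values in 1 column per library. These hold no depth, and a count model was therefore not used.

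Values were transformed to log2(TPM + 1), which is not a deposited unit, and the filter required 1 TPM in 2 or more of the 7 libraries. A model of stage alone was fitted to these 7 libraries with limma 3.58.1 (R 4.3.3), using a mean-variance trend, and had 4 degrees of freedom left (prior 4.27). Adjusted p-values are Benjamini-Hochberg values over all 15931 genes. Of the genes tested, 227 share all values with another row and are uncertain (52 of the called ones).

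The comparison, the 61 gene lists and the rule for named genes were chosen with earlier results of these data known. The rule takes Hopx, the 12 largest increases and decreases without overlap, the 10 most abundant adult genes, up to 5 called members per list (2 of the highest mean where none was called) and all members of lists with at most 8. Some of these are given only in the count of their list. Some genes are not reported here. The other genes in the text were picked with their values in view. Alternatives were other pseudocounts (0.1 and 5), other filters, scalings and limma settings, a replicate block, the 5 libraries alone, summed symbols and each library left out. Testing identical rows once and leaving out the 10 most abundant genes were added after seeing the data. Promoters were matched by symbol to RefSeq entries (GRCm38.p6), whose coordinates belong to another build than that of the values. A comparison over all genes tested was void, since 70.3% of 15840 symbols had an entry, under the 80% set as a minimum, and so was one of ribosomal protein genes (71.6%).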

Additional observations from a re-analysis of the deposited data

How the results depend on the processing

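Without adult replicates 1 and 3, 569 genes were higher in the adult and 1129 lower, against 1337 and 2193 as reported. Over the 7 fits that left out 1 library, the number higher was between 436 (without P3 replicate 3) and 1311 (without adult replicate 3), and the number lower between 671 (without P3 replicate 3) and 2084 (without adult replicate 1). With the other alternatives both counts stayed within 1.5 times those reported, from 930 to 1714 higher and from 1514 to 2226 lower; the lowest number higher came with the replicate block (930 higher and 1543 lower). Replicate numbers 1 and 3 are shared by both stages, but the deviations of same-numbered libraries correlated by 0.005 and -0.013 across genes, so the numbers are not taken as a pairing. Of 122 counts of list members, 76 moved by over 1.5 times without P3 replicate 3, 70 without adult replicates 1 and 3, and at most 28 under any other alternative. Of 295 genes taken by the naming rule, 108 lost their call without P3 replicate 3, 93 without adult replicates 1 and 3, and at most 49 otherwise. None of the called genes that the naming rule takes changed direction in any alternative. TPM gives no depth, so it is unknown how far depth limits genes at low values.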
